A study of Mus musculus with 72 samples.

Results

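Liver transcripts were measured in the blood RNA of mice exposed to neutrons or x-rays. The set comprised 35 genes that hepatocytes, the main cells of the liver, express at high levels, and each gene was found on the microarray by its gene name, with the brightest probe taken where a gene had several (13 of the 35 genes). All 35 were present among the 31130 genes of the array. Whole blood from 72 mice was profiled on 1-colour Agilent mouse arrays, 1 array per mouse. The adult male C57BL/6 mice were sham-irradiated (controls) or received a whole-body dose of neutrons (0.25 or 1 Gy) or of x-rays (1 or 4 Gy), and blood was drawn from the heart at death into an RNA-stabilizing solution. Day 1 and day 7 had all 5 treatments and day 3 had controls, 0.25 Gy neutrons and 1 Gy x-rays, giving 13 groups of 5 or 6 mice. The groups shared sex and strain, and no array of liver tissue was analysed here. Levels are given as log2 signal relative to the median of the detected probes of the same array, so that 0 is a probe of median brightness and 1 unit is a doubling, and a level is compared only between mice, never between probes.

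Hepatocytes make most plasma proteins, among them albumin, transferrin, the apolipoproteins and the clotting factors, and they carry out the urea cycle, gluconeogenesis, amino acid breakdown and the oxidation of drugs. Their transcripts belong to liver rather than to circulating blood cells, although some members, such as transferrin and argininosuccinate synthase, are made in other cells too. Transcription of these genes in the liver depends on a small group of factors, including HNF1, HNF4 and C/EBP. In bulk blood RNA, fewer cells of a type and less RNA per cell cannot be told apart.

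The albumin measurement rests on a single probe of 60 bases, shown because Alb is followed through every group. The array file places it at chr5:90901598-90901657 of the mm9 build, in the transcript of Alb. All bases are in lower case.

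Alb probe: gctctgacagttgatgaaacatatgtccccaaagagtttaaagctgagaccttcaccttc

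Promoters of 4 members of different function are shown next, as the 250 bases upstream of the transcription start from RefSeq (GRCm38.p6), because the members varied together as described below. Capitals mark the letters GTTAAT, a core of the HNF1 motif, TTGCNNAA, a C/EBP motif, and TATAAA, the TATA box, searched on both strands. The promoters lie at chr5:90460620-90460869 on the plus strand for Alb, chr12:103863620-103863869 on the minus strand for Serpina1a, chr3:83049864-83050113 on the minus strand for Fgb and chr7:140763569-140763818 on the plus strand for Cyp2e1.

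Alb promoter: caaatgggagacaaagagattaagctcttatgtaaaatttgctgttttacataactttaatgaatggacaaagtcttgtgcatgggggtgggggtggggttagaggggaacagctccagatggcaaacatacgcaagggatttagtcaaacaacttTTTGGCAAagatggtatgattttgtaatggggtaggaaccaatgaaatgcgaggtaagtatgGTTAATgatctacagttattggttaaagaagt

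Serpina1a promoter: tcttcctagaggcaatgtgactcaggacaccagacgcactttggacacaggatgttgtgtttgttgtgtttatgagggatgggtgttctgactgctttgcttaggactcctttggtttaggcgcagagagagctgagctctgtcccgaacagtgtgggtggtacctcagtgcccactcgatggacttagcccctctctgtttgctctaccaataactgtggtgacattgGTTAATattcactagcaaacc

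Fgb promoter: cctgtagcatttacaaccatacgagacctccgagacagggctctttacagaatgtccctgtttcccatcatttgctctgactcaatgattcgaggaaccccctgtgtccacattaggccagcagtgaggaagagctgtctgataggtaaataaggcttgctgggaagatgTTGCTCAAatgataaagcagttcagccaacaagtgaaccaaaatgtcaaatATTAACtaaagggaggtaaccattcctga

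Cyp2e1 promoter: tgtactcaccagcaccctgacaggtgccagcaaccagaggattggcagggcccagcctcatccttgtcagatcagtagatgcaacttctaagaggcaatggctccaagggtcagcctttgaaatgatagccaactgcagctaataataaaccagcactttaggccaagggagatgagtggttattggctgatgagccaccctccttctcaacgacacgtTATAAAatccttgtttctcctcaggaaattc

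GTTAAT stood 32 to 27 bases before the start of Alb, 21 to 16 before Serpina1a and 29 to 24 before Fgb, where it reads ATTAAC on the strand shown. Of the 27 members with a promoter in the table, 7 held GTTAAT (Alb, Serpina1a, Fabp1, Fga, Fgb, Pck1 and Gc), against 6.43% of all 32851 promoters. TTGCNNAA was found in 9 of the 27 (Alb, Apoa2, Fabp1, Apob, Fga, Fgb, Ahsg, Rbp4 and Uox), against 9.56% of all promoters. TATAAA was found in 7 of the 27 (Apoa2, Fabp1, Apob, Rbp4, Tdo2, Cyp2e1 and Cyp3a11), against 12.4%. A match describes the letters only. Ttr, Trf, Apoc1, Apoc3, Cps1, Kng1, Plg and Mat1a had no entry.

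The members ranged from at background to saturated. All 35 were well above background on 40 of the 72 arrays, and the lowest number on an array was 7. The mean of the 35 levels ran from -4.88 to 8.23 over the mice, with a median of 2.55. Apoa2, Trf, Apoc1, Fgb, Tat, Cyp2e1 and Ass1 were well above background on every array, and the span from their lowest to their highest mouse was 7.32 for Tat up to 12.1 for Cyp2e1. The other members reached background in some mice, where a low level is only a limit, and Tdo2 was measured above it on the fewest arrays, 41. Alb, Apoa2 and Serpina1a were saturated on 5, 3 and 4 arrays, so that their highest levels are lower limits. A faulty spot left 1 mouse without a value for Apoc3 in the day 7 controls (replicate 1) and in 0.25 Gy neutrons on day 7 (replicate 3), for Tdo2 in 0.25 Gy neutrons on day 3 (replicate 4) and for Gc in 1 Gy neutrons on day 7 (replicate 1), and fits of these genes drop that mouse.

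A second set of deposited values bore on the labels. Of the 72 columns of the authors' normalized table, 12 followed the array file of the same mouse and 60 that of another mouse, 21 of them from another group. Levels here come from the array files under their own labels. If each array instead took the label of the table column that followed it, the mean of the members would differ by 4.55 rather than 4.95 between 4 Gy x-rays and controls on day 1, and by -3.68 rather than -5.90 between the controls of day 7 and day 1, with overlap in both. The day 7 controls would then reach up to 6.84, and the differences after 0.25 and 1 Gy of neutrons on day 7 would turn from 0.77 and 1.63 to -1.85 and -0.70. For x-rays on day 7 the differences would be 0.98 rather than 2.81 at 1 Gy and 1.29 rather than 3.90 at 4 Gy. The difference would be 3.07 rather than 1.63 for 1 Gy x-rays on day 3 and -0.71 rather than -3.86 between the controls of day 7 and day 3. Which labels are right was not tested.

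Mice of the same group differed widely in the mean of the 35 members. On day 1 the controls stood at 3.54, -1.55, 4.51, 5.63 and -0.72. The 4 Gy x-ray mice of that day stood at 7.10, 7.86, 7.73, 6.64 and 6.84, all above the controls and close to each other. The lowest, median and highest of 6 mice were 0.37, 4.73 and 8.23 for 0.25 Gy neutrons, -1.58, 6.19 and 7.23 for 1 Gy neutrons, and 1.81, 5.27 and 6.44 for 1 Gy x-rays, and each of these groups overlapped the controls.

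On day 3 the control mice were at -4.18, 5.2, 3.65, -1.03 and -2.44, the widest spread among the control groups. The 6 mice given 0.25 Gy neutrons were between 3.41 and 7.17, with a median of 4.99. The 1 Gy x-ray mice were at 3.43, -0.38, -0.58, 4.89 and 1.98. Both exposed groups overlapped the controls. On day 7 the 6 controls were uniformly low, between -4.53 and -2.66 (median -3.76). The 0.25 Gy neutron mice were at -3.18, -3.21, -3.77, -0.56 and -3.56, and the 1 Gy neutron mice between -3.24 and 2.12 (median -2.74). After 1 Gy x-rays the values were -4.08, -2.78, 2.26, -3.50 and 4.02. The 4 Gy x-ray mice of day 7 fell apart into low and high animals, at -4.88, 3.67, -4.08, 4.43, -3.79 and 6.33.

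**Figure D1:**
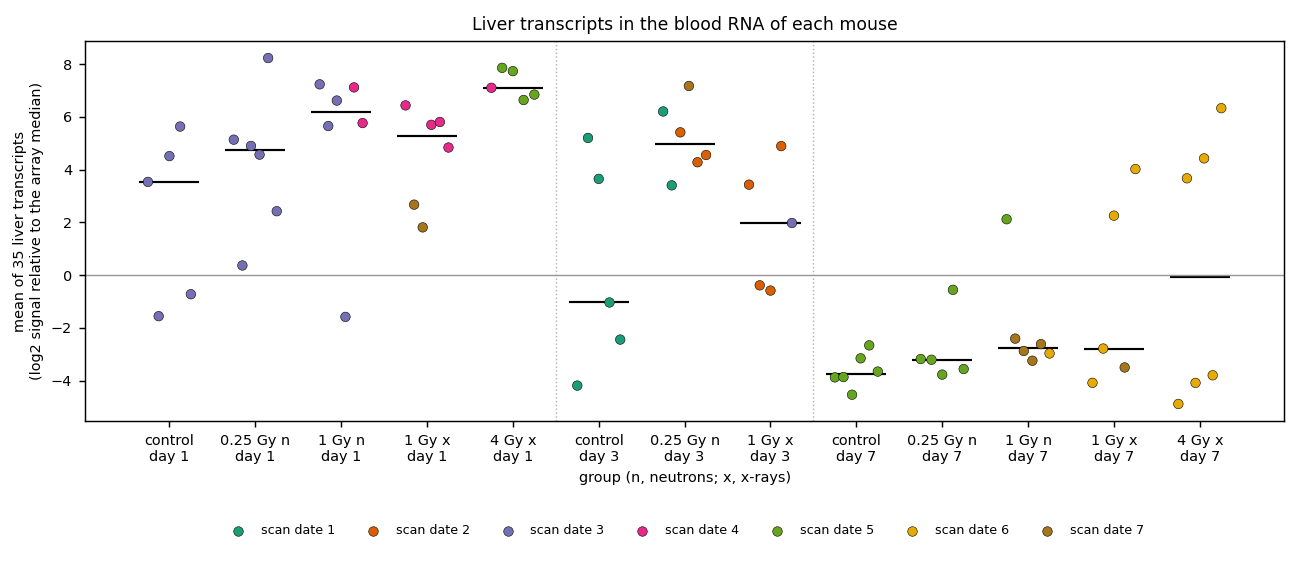
Mean of the 35 liver transcripts in each mouse (vertical axis, log2 signal relative to the array median) by group (horizontal axis); each point is 1 mouse, its colour the scan date of its array, and the black line is the group median. The 4 Gy x-ray mice of day 1 sit between 6.64 and 7.86, above all day 1 controls, while the day 7 controls sit between -4.53 and -2.66 and the 4 Gy x-ray mice of day 7 spread from -4.88 to 6.33.

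The 35 transcripts went up and down together from mouse to mouse. After removal of the group means, each member was correlated with the mean of the others over the 72 mice. Pearson's r ran from 0.867 for Tat to 0.992 for Serpinc1, with a median of 0.971, and 31 members exceeded 0.9. These points share the array, its scaling and its scan, so r is given as a description only. In each of the 13 groups the mouse with the highest mean also held the highest level of 19 to 35 of the 35 members. The count was 35 of 35 in 0.25 Gy neutrons on day 1, controls on day 3, and both x-ray groups of day 7, and it was lowest, 19, in the day 7 controls, where 10 members were at background in all 6 mice. The slope of a member on the mean of the others was 1.07 in the median and was smallest for Tat (0.39), Ass1 (0.45), Trf (0.50) and Apoa2 (0.58), which are among the 7 members above background on every array.

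**Figure D2:**
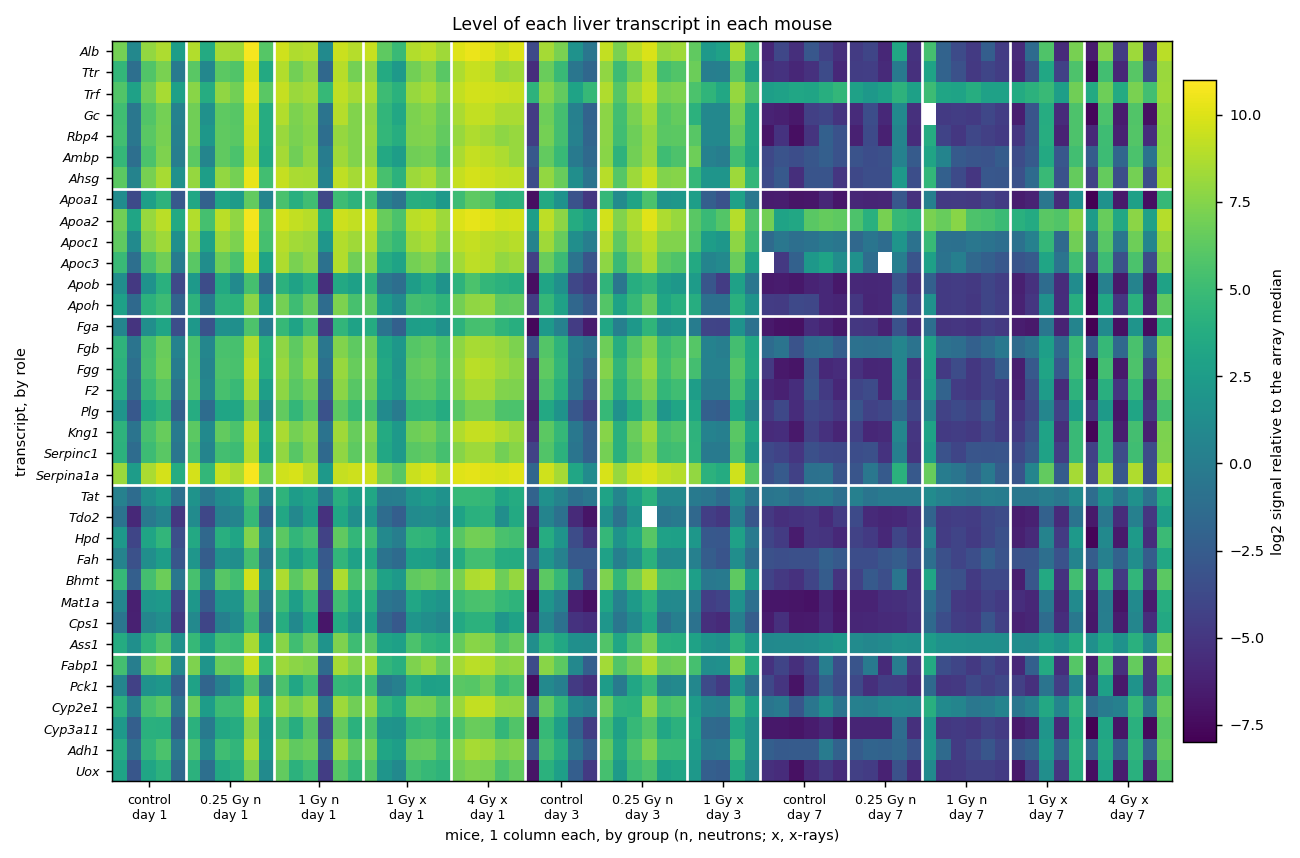
Level of each of the 35 liver transcripts (rows, by role) in each of the 72 mice (columns, by group), as log2 signal relative to the array median (colour scale); white cells are the 4 missing spots. Columns are bright or dark over nearly their whole height, and the same group holds bright and dark columns, as in the day 3 controls and the 4 Gy x-ray mice of day 7.

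Among the plasma carriers, Alb encodes albumin, the most abundant plasma protein. Its level was 7.01, 0.88, 7.89, 8.68 and 2.58 in the day 1 controls and 10.04, 10.48, 10.18, 9.46 and 10.03 after 4 Gy x-rays, with no overlap. The lowest, median and highest were 3.61, 8.39 and 10.75 after 0.25 Gy neutrons, 1.09, 8.88 and 9.65 after 1 Gy neutrons, and 4.90, 8.58 and 9.44 after 1 Gy x-rays. Each of these 3 groups held mice as low as some controls and others above all of them. Alb stood at -3.83, 8.43, 7.17, 1.66 and -0.54 in the day 3 controls, between 7.19 and 9.91 (median 8.66) after 0.25 Gy neutrons, and at 6.38, 2.18, 2.84, 8.63 and 5.16 after 1 Gy x-rays. The highest day 3 control thus had 4911 times the signal of the lowest.

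On day 7, Alb in the controls lay between -5.86 and -2.81 with a median of -4.88, and it was well above background in 2 of the 6 mice, replicates 2 and 4. It was at -4.73, -4.04, -5.91, 3.29 and -5.24 after 0.25 Gy neutrons, where only replicate 4 was above background. After 1 Gy neutrons it ran from -4.81 to 5.43 (median -2.97). The x-ray groups held both extremes. The levels were -5.68, -1.34, 5.78, -5.66 and 7.10 at 1 Gy and -6.58, 7.45, -4.69, 8.21, -5.04 and 9.01 at 4 Gy, the highest 4 Gy mouse being at least 32137-fold above the lowest, whose spot was not well above background.

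Ttr encodes transthyretin, which carries thyroid hormone and retinol-binding protein. In the day 1 controls it was at 4.57, -1.09, 5.86, 7.21 and -0.21, and after 4 Gy x-rays at 8.64, 9.43, 9.21, 8.05 and 8.31. The other day 1 groups reached from 0.79 to 9.87 (median 5.98) after 0.25 Gy neutrons, from -1.57 to 8.98 (median 7.43) after 1 Gy neutrons and from 2.31 to 7.87 (median 6.56) after 1 Gy x-rays. Only the 4 Gy group stood clear of the controls. On day 3 the controls were at -5.48, 6.67, 4.87, -0.55 and -1.64, the 0.25 Gy neutron mice between 5.02 and 8.80 (median 6.33) and the 1 Gy x-ray mice at 6.72, 0.11, 0.18, 6.20 and 2.75. On day 7 no control spot of Ttr was well above background (-5.89 to -3.67, median -5.39). The neutron groups were at -4.56, -4.45, -5.72, -0.25 and -5.36 after 0.25 Gy and between -4.84 and 3.05 (median -3.66) after 1 Gy. The x-ray groups were at -5.90, -3.38, 3.35, -4.34 and 5.67 after 1 Gy and between -7.58 and 8.14 (median 0.77) after 4 Gy, so that each exposed group held mice above background and mice at it.

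The other carriers are Trf (transferrin, iron), Gc (vitamin D), Rbp4 (retinol), Ambp (the precursor of the inhibitor bikunin and a lipocalin) and Ahsg (fetuin-A, a mineral carrier). Trf was well above background in all 72 mice, with a span of 8.16. Ambp was above it in 68 mice, Ahsg in 64, Rbp4 in 56 and Gc in 52.

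Apoa1, the main protein of high-density lipoprotein, was at 1.27, -3.73, 2.70, 4.30 and -2.73 in the day 1 controls and at 4.99, 6.27, 5.93, 4.18 and 4.26 after 4 Gy x-rays, where the lowest mice fell just below the highest control. It ran from -2.07 to 6.41 (median 2.77) after 0.25 Gy neutrons, from -3.98 to 5.56 (median 4.69) after 1 Gy neutrons and from -0.72 to 5.08 (median 3.03) after 1 Gy x-rays. On day 3 it was at -7.24, 3.51, 1.67, -3.21 and -4.92 in controls, between 1.19 and 5.60 (median 2.58) after 0.25 Gy neutrons, and at 2.62, -2.27, -3.18, 2.88 and -0.38 after 1 Gy x-rays. Groups overlapped on day 3. None of the day 7 control spots of Apoa1 was well above background (-6.90 to -5.89, median -6.68). On that day it was at -5.92, -6.03, -5.94, -2.84 and -5.29 after 0.25 Gy neutrons, between -4.86 and 0.19 (median -4.70) after 1 Gy neutrons, at -6.46, -6.11, -0.43, -5.68 and 1.71 with 1 Gy x-rays and between -7.93 and 4.70 (median -2.54) with 4 Gy. Each mouse of day 7 with Apoa1 above background also had Alb above background. Apoa2 and Apoc1 (small exchangeable apolipoproteins) were above background in every mouse, with spans of 8.28 and 11.9. Apoc3 (an inhibitor of triglyceride clearance), Apob (the structural protein of very low-density lipoprotein) and Apoh (a phospholipid-binding glycoprotein) were above it in 66, 45 and 53 mice.

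For clotting and its control, Fgb encodes the fibrinogen beta chain. Its level was 4.34, -0.67, 5.35, 6.63 and 0.39 in the day 1 controls and 7.78, 8.48, 8.34, 8.0 and 7.25 after 4 Gy x-rays, with no overlap. It lay between 0.71 and 8.71 (median 5.48) after 0.25 Gy neutrons, between -0.55 and 7.85 (median 6.87) after 1 Gy neutrons and between 2.04 and 6.80 (median 5.74) after 1 Gy x-rays. On day 3 it was at -3.14, 5.90, 4.38, -0.01 and -0.85 in controls, between 3.83 and 7.41 (median 5.77) after 0.25 Gy neutrons and at 5.97, 0.39, 0.12, 5.35 and 3.37 after 1 Gy x-rays. Fgb stayed above background on every array, so its day 7 levels are measured values. They were -3.18 to -0.69 (median -1.36) in controls, -0.91, -1.06, -0.92, 0.62 and -0.78 after 0.25 Gy neutrons, and -2.19 to 2.92 (median -1.0) after 1 Gy neutrons. After x-rays they were -1.46, -0.67, 2.71, -1.49 and 4.86 at 1 Gy and -2.33 to 7.26 (median 1.65) at 4 Gy. The same few exposed mice stood out as for Alb.

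Serpina1a, an alpha-1-antitrypsin that inhibits neutrophil elastase, belongs to a family of near-identical mouse genes whose transcripts its probe may share. It was at 8.11, 2.49, 8.57, 9.74 and 3.74 in the day 1 controls. In the 5 mice given 4 Gy x-rays it was at 10.04, 10.22, 9.96, 9.88 and 10.09, the tightest of the 35 members in this group. None of these 5 spots was saturated. In 1 Gy neutrons on day 1, however, the probe was saturated at levels of 9.65, 8.87 and 9.35. Whether a signal ceiling made the 4 Gy levels tight was not tested. The ranges were 4.56 to 10.74 (median 8.99) after 0.25 Gy neutrons, 2.20 to 9.87 (median 9.43) after 1 Gy neutrons and 6.10 to 9.85 (median 9.17) after 1 Gy x-rays. On day 3 the levels were -1.75, 9.66, 8.43, 3.27 and 1.19 in controls, 8.04 to 9.91 (median 9.30) after 0.25 Gy neutrons, and 7.89, 4.2, 3.66, 9.63 and 5.97 after 1 Gy x-rays. The highest mice of these 3 groups, none with a saturated spot, lay close together while the lowest lay far apart. A part of a signal ceiling in this was not tested. On day 7 Serpina1a was between -4.35 and -0.82 (median -2.86) in controls. It was at -2.97, -0.47, -2.63, 4.12 and -2.71 after 0.25 Gy neutrons and between -2.41 and 6.58 (median -0.46) after 1 Gy neutrons. The 1 Gy x-ray mice were at -3.08, 0.64, 6.41, -2.50 and 8.46 and the 4 Gy mice between -3.86 and 8.99 (median 2.80). The remaining members of this role were Fga and Fgg (the other fibrinogen chains), F2 (prothrombin), Plg (plasminogen), Kng1 (kininogen) and Serpinc1 (antithrombin), above background in 47, 54, 54, 56, 52 and 61 mice.

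Of the amino acid and one-carbon enzymes, Cps1 starts the urea cycle. It was at -0.56, -6.26, 0.72, 1.36 and -4.81 in the day 1 controls and at 3.47, 4.21, 4.12, 1.96 and 2.96 after 4 Gy x-rays, above all controls. It ran from -4.05 to 5.06 (median 0.56) after 0.25 Gy neutrons, from -6.87 to 3.86 (median 2.59) after 1 Gy neutrons and from -2.71 to 2.63 (median 1.08) after 1 Gy x-rays. On day 3 it was at -6.34, 0.76, -0.91, -5.2 and -5.49 in controls, between -0.93 and 3.39 (median 0.65) after 0.25 Gy neutrons and at -0.82, -5.44, -5.71, 0.23 and -2.39 after 1 Gy x-rays. No day 7 control and no 0.25 Gy neutron mouse of day 7 had Cps1 well above background (-6.80 to -5.36, median -6.58, and -5.94, -5.89, -5.70, -5.70 and -5.21). It was between -4.83 and -1.53 (median -3.95) after 1 Gy neutrons, where replicate 1 alone was above background. After x-rays it was at -6.21, -5.95, -1.29, -5.50 and -0.36 at 1 Gy and between -6.80 and 3.44 (median -2.70) at 4 Gy.

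Tat encodes tyrosine aminotransferase, a classic target of glucocorticoids in liver. It was at 0.36, -1.27, 1.47, 2.43 and -1.0 in the day 1 controls and at 4.76, 4.71, 4.55, 3.11 and 3.67 after 4 Gy x-rays. It ran from -0.40 to 5.37 (median 1.51) after 0.25 Gy neutrons, from -0.27 to 4.34 (median 2.86) after 1 Gy neutrons and from 0.03 to 3.23 (median 1.77) after 1 Gy x-rays. All 5 mice given 4 Gy were above all controls. On day 3 Tat was at -1.95, 1.58, 0.51, -1.02 and -0.48 in controls, between 0.66 and 4.2 (median 1.78) after 0.25 Gy neutrons and at -0.16, -0.58, -1.33, 1.36 and -0.56 after 1 Gy x-rays. On day 7 it was between -1.15 and -0.18 (median -0.53) in controls, at 0.28, -0.60, -0.22, -0.17 and -0.16 after 0.25 Gy neutrons and between -0.38 and 1.14 (median 0.07) after 1 Gy neutrons. The x-ray mice of day 7 were at -0.49, -0.46, 0.15, -0.50 and 1.18 after 1 Gy and between -1.18 and 3.74 (median 0.50) after 4 Gy. The rest of this role were Tdo2 (tryptophan breakdown), Hpd and Fah (tyrosine breakdown), Bhmt (homocysteine remethylation), Mat1a (synthesis of S-adenosylmethionine) and Ass1 (a urea cycle enzyme), above background in 41, 49, 66, 55, 45 and 72 mice. The array file places the Ass1 probe on chromosome 10, whereas RefSeq places the gene on chromosome 2; for the other 31 members with probe coordinates the chromosomes were the same.

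Among the enzymes of fuel, fat, drug and purine metabolism, Fabp1 encodes the liver fatty acid-binding protein. It was at 5.35, 0.12, 6.6, 7.53 and 0.96 in the day 1 controls and at 8.45, 9.03, 8.84, 7.63 and 7.75 after 4 Gy x-rays, just above the highest control. It ran from 1.84 to 9.41 (median 6.48) after 0.25 Gy neutrons, from -1.40 to 8.42 (median 7.57) after 1 Gy neutrons and from 3.97 to 8.30 (median 6.98) after 1 Gy x-rays. On day 3 it was at -3.64, 7.60, 6.19, 0.86 and -2.24 in controls, between 5.86 and 8.65 (median 6.93) after 0.25 Gy neutrons and at 5.42, 1.37, 1.53, 7.37 and 3.79 after 1 Gy x-rays. On day 7 one control, replicate 5, reached 0.12 while the others were between -5.42 and -3.43. After neutrons Fabp1 was at -3.05, -0.23, -5.75, 0.06 and -4.84 at 0.25 Gy and between -4.82 and 3.64 (median -3.95) at 1 Gy. After x-rays it was at -5.81, -2.16, 3.64, -5.54 and 5.98 at 1 Gy and between -6.53 and 7.54 (median 0.34) at 4 Gy.

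Pck1, the cytosolic enzyme that commits carbon to gluconeogenesis, was at 0.61, -4.31, 1.68, 2.09 and -2.26 in the day 1 controls and at 6.13, 5.99, 6.75, 4.98 and 5.65 after 4 Gy x-rays, the widest gap between these groups of any member. It ran from -1.81 to 6.02 (median 1.24) after 0.25 Gy neutrons, from -4.30 to 5.60 (median 4.55) after 1 Gy neutrons and from -0.37 to 4.97 (median 2.84) after 1 Gy x-rays. On day 3 it was at -7.41, 0.97, 0.20, -4.78 and -5.45 in controls, between -0.20 and 4.90 (median 1.71) after 0.25 Gy neutrons, and at 0.79, -3.75, -4.78, 1.94 and -1.06 after 1 Gy x-rays. The day 7 levels were mostly at background. They were between -6.99 and -2.05 (median -4.33) in controls, at -3.88, -5.43, -4.55, -4.65 and -5.55 after 0.25 Gy neutrons and between -4.97 and -1.48 (median -4.17) after 1 Gy neutrons. After x-rays they were at -4.43, -5.34, -0.66, -4.48 and 0.73 at 1 Gy and between -6.68 and 4.91 (median -1.67) at 4 Gy.

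Cyp2e1, the ethanol-inducible cytochrome P450, was at 4.23, 0.11, 5.48, 6.11 and -0.68 in the day 1 controls and at 8.12, 9.22, 9.16, 7.94 and 7.85 after 4 Gy x-rays, with no overlap. It ran from 2.53 to 9.06 (median 5.00) after 0.25 Gy neutrons, from -0.74 to 8.22 (median 7.45) after 1 Gy neutrons and from 3.67 to 7.80 (median 6.48) after 1 Gy x-rays. On day 3 it was at -2.14, 6.46, 4.48, 0.80 and 0.18 in controls, between 4.10 and 7.88 (median 5.60) after 0.25 Gy neutrons, and at 2.49, 0.55, 0.32, 5.52 and 3.05 after 1 Gy x-rays. Cyp2e1 was above background on every array. On day 7 it was between -2.91 and 1.29 (median -0.57) in controls, at 0.25, 0.13, 0.74, 1.00 and 0.76 after 0.25 Gy neutrons and between -0.45 and 4.00 (median 0.60) after 1 Gy neutrons. After x-rays it was at -0.55, 0.38, 3.43, 0.65 and 4.35 at 1 Gy and at -1.23, -0.10, 0.26, 4.70, -0.31 and 6.6 at 4 Gy. In 4 Gy x-rays on day 7, replicate 2 departed from the common pattern, with Cyp2e1 at -0.10 where the other members averaged 3.78. Its distance from a line of Cyp2e1 on the mean of the other members was -5.06, the largest departure of any member in any mouse. The others of this role were Cyp3a11 (a drug-oxidizing cytochrome P450), Adh1 (alcohol dehydrogenase) and Uox (urate oxidase), above background in 50, 67 and 50 mice.

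The comparison of 4 Gy x-rays with controls on day 1 asks whether exposure changed these transcripts. All 35 members averaged higher in the exposed mice, by 3.42 (Ass1) to 6.34 (Pck1) on the log2 scale with a median of 5.24, against a median of 0.07 over all 31130 genes. In 33 of 35 members every exposed mouse was above every control, where 13.2% of all genes were, and the exceptions were Apoa1 and Apob. Of the members, 14 passed the filters on detection and change and were tested by limma among 10863 genes. Calls needed p under 0.001 and an FDR under 5%. By that test 6 of the 14 were called higher, where 16.5% of the genes tested were: Tat (3.76 ± 0.65, SE, adjusted p 0.000459), Adh1 (5.35 ± 1.13, adjusted p 0.00157), Fah (4.69 ± 1.01, adjusted p 0.00176), Cyp2e1 (5.41 ± 1.17, adjusted p 0.00178), Ass1 (3.42 ± 0.74, adjusted p 0.00178) and Trf (4.11 ± 0.92, adjusted p 0.00219). All 3 tested amino acid enzymes and both tested enzymes of fuel and drug metabolism were called, against 1 of 3 carriers, 0 of 3 apolipoproteins and 0 of 3 clotting genes. In the fit over all 31130 genes, which covers every member, 4 of 35 were called (Pck1, Tat, Tdo2 and Adh1), against 8.78% of all genes, and all 35 had an unadjusted p under 0.05 and an adjusted p under 0.05. Counts at an unadjusted p under 0.05, here and below, are given without the share of all genes and describe the members only.

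Albumin was not among the calls. It averaged 10.04 ± 0.37 (SD, n = 5) after 4 Gy and 5.41 ± 3.46 (SD, n = 5) in controls. Its spot was saturated in 4 Gy replicate 3, so the 4 Gy mean and the difference from controls are lower limits. The difference of 4.63 ± 1.33 (SE) had an adjusted p of 0.0195 by limma over all genes and was not called. An exact two-sided permutation test over the mice gave p = 0.00794, the smallest that 5 against 5 mice allow, and 0.0375 after adjustment over the 13 comparisons. Serpina1a differed by 3.51 ± 1.17 (SE, adjusted p 0.0198 by limma), Fgb by 4.76 ± 1.17 (adjusted p 0.00396) and Apoc1 by 4.12 ± 1.24 (adjusted p 0.0121), none of them called. The count of calls among the 14 ranged from 1 to 12 when 1 mouse at a time was left out. It was 12 without control replicate 4, 3 without control replicate 2 or 4 Gy replicate 4, 2 without control replicate 5, and 1 without any of 4 Gy replicates 1, 2, 3 or 5. The day 1 controls were all scanned on 1 date (scan 3) and the 4 Gy mice on others (scans 4 and 5), so that no difference within a scan date could be formed.

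The other exposures of day 1 were set against the same 5 controls. All 35 members averaged higher after 0.25 Gy neutrons (median 1.98, range 1.28 to 2.56), after 1 Gy neutrons (median 2.97, range 1.71 to 3.80) and after 1 Gy x-rays (median 2.35, range 0.97 to 2.96). None of the 14 tested members was called by limma in any of these 3 comparisons, in which 0%, 6.97% and 3.1% of the genes tested were called higher, and the random variance test also called none. The fit over all genes called none of the 35 either, against 0%, 3.29% and 1.23% of all genes. At an unadjusted p under 0.05 the counts of the 35 were 0, 2 and 1. No member had every exposed mouse above every control, where 0.597%, 4.12% and 2.64% of all genes did. For Alb the differences were 2.25 (permutation p = 0.229), 2.38 (permutation p = 0.177) and 2.40 (permutation p = 0.186), by the exact test over mice. Leaving out 1 mouse at a time, they ran from 1.12 to 3.07, from 1.25 to 3.72 and from 1.27 to 3.22. Alb was saturated in replicate 5 of 0.25 Gy neutrons and in replicates 1, 3 and 5 of 1 Gy neutrons. The Alb differences for neutrons are therefore lower limits. Within scan 3 the mean of the members was 1.99 higher after 0.25 Gy neutrons (6 against 5 mice) and 2.20 higher after 1 Gy neutrons (4 against 5 mice). The 1 Gy x-ray mice (scans 4 and 7) shared no scan date with the controls (scan 3), so that no such difference could be formed. Their mean of the members ran from 4.84 to 6.44 in scan 4 and from 1.81 to 2.67 in scan 7.

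**Figure D3:**
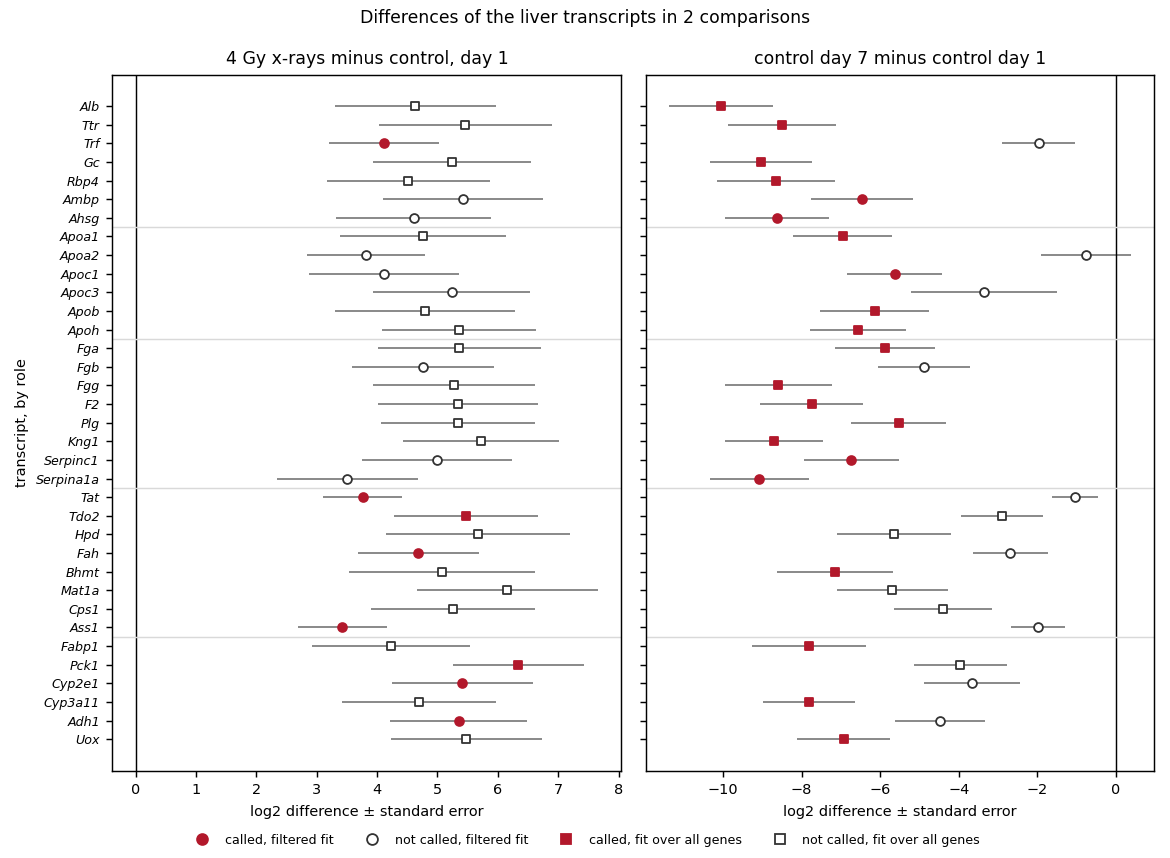
Log2 difference (horizontal axis, ± standard error) of each of the 35 liver transcripts (vertical axis, by role) between 4 Gy x-ray and control mice on day 1 (left) and between control mice of day 7 and of day 1 (right). Circles come from the fit on filtered genes and squares, for members outside the filter, from the fit on all genes, red where called; all differences on the left are between 3.42 and 6.34 and all on the right between -10.05 and -0.75.

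On day 3, all 35 members averaged higher after 0.25 Gy neutrons than in controls, by 2.32 (Tat) to 6.07 (Bhmt) with a median of 5.27. None of the 14 tested was called by limma, where 0.543% of the genes tested were called higher, and the random variance test also called none. All 35 had an unadjusted p under 0.05, and the lowest adjusted p over all genes was 0.161, so that none was called there either (0.00321% of all genes were). No member was free of overlap, where 0.922% of all genes had every exposed mouse above every control. Control replicate 2, at 5.2 in the mean of the members, decided the count, for without it 12 of the 14 were called. Alb was 6.04 ± 1.87 (SE) higher (exact permutation p = 0.026, and 0.0844 adjusted over 13 comparisons). Within scan 1 the mean of the members was 4.57 higher (2 against 5 mice). After 1 Gy x-rays the 35 differences ran from 0.02 to 2.46 with a median of 1.83. Over the 14 tested the median was 1.2, and 0.39 with spike-in centring, where the median of all genes tested was -0.82. Limma called 0 of 14 (1.59% of genes were called higher), as did the random variance test, with 0 of 35 at an unadjusted p under 0.05. The fit over all genes called 0 of 35 (0% of all genes), and 0 of 35 were free of overlap (2.67% of all genes were). Both comparisons used the same 5 controls. The 1 Gy x-ray mice (scans 2 and 3) shared no scan date with these controls (scan 1).

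On day 7 the 4 exposed groups were compared with the same 6 controls. The x-ray mice (scans 6 and 7) shared no scan date with these controls (scan 5), and 1 mouse of 1 Gy neutrons did. The median difference over the 35 members was 2.92 for 1 Gy and 4.01 for 4 Gy of x-rays, and for 1 Gy the median over the 14 tested was 2.11, or 1.08 with spike-in centring. For 0.25 and 1 Gy of neutrons it was 0.94 and 1.76. Over the 14 tested members it was 0.36 and 0.86, which turned to -0.85 and -1.22 when arrays were centred on their spike-in spots. That centring moved the median of all genes tested too, to -1.23 and -2.15 for the neutron groups and to -1.07 for 1 Gy x-rays. Limma called 0 of the 14 in each of the 4 comparisons, and so did the random variance test. Of the genes tested, limma called 0.0276% higher for 0.25 Gy neutrons, 25.1% for 1 Gy neutrons, 3.28% for 1 Gy x-rays and 9.07% for 4 Gy x-rays. At an unadjusted p under 0.05 there were 8, 13, 12 and 11 of the 35 in that order, given without the share of all genes.

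In the fit over all genes, Mat1a was called higher after 0.25 Gy neutrons (0.954% of all genes were), although none of its spots in either group was well above background. After 1 Gy neutrons Apob, Cps1 and Mat1a were called, 3 of 35, where 30.9% of all genes were called higher, and 6 of 35 had every exposed mouse above every control (Apoa1, Apob, Fga, Cps1, Cyp3a11 and Mat1a), where 30.4% of all genes did. Both shares lay below those of all genes. The arrays of this group had 40.2% to 50.3% of their spots well above background, against 54.3% to 63.9% in the controls, and the part of this difference in the result was not tested. No fold is given for these 3, since each was well above background in 1 of 6 exposed mice and in no control. For 1 Gy x-rays none of 35 was called (0.96% of all genes were), and Mat1a alone had every exposed mouse above every control (2.12% of all genes did). For 4 Gy x-rays none of 35 was called (4.09% of all genes were), and none was free of overlap (4.76% of all genes were), as for 0.25 Gy neutrons (1.83%).

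The spread within the groups of day 7 was uneven. The median over members of the standard deviation was 0.81 in controls, 1.35 and 2.03 for 0.25 and 1 Gy of neutrons, and 3.77 and 5.32 for 1 and 4 Gy of x-rays. Of the members' levels, 47.6% were well above background in controls, 49.1% and 39.0% in these neutron groups and 69.7% and 72.9% in these x-ray groups. A level at background is only a limit, so the spread of the low mice is not fully measured, and the part of this in the standard deviations was not tested. For neutrons this rested on 1 mouse each: without replicate 1 of 1 Gy the mean of the members ran from -3.24 to -2.40, and without replicate 4 of 0.25 Gy from -3.77 to -3.18, against -4.53 to -2.66 in controls. The median standard deviation was 0.59 in the 4 Gy x-ray mice of day 1. Alb differed from the day 7 controls by 1.32, 2.66, 4.68 and 6.04 in the order of groups above, with exact permutation p of 0.619, 0.0714, 0.147 and 0.147. Groups overlapped in all 4 comparisons. Without replicate 4, the single 0.25 Gy neutron mouse above background, the first of these differences became -0.33.

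Controls of different days were compared to see how the members varied without exposure. From day 1 to day 7 all 35 averaged lower, with differences from -0.75 for Apoa2 down to -10.05 for Alb and a median of -6.14 against 0.13 over all genes. In 23 of 35 members every day 7 control was below every day 1 control, where 2.41% of all genes were. Limma called 5 of 14 lower, where 1.8% of the genes tested were, namely Serpina1a (-9.08 ± 1.26, SE, adjusted p 0.00926), Ahsg (-8.62 ± 1.32, adjusted p 0.0131), Serpinc1 (-6.74 ± 1.21, adjusted p 0.0146), Ambp (-6.47 ± 1.29, adjusted p 0.0159) and Apoc1 (-5.63 ± 1.21, adjusted p 0.0173). In the fit over all genes 21 of 35 were called lower, against 0.887% of all genes. By role these were 6 of 7 carriers, 4 of 6 apolipoproteins, 7 of 8 clotting genes, 1 of 8 amino acid enzymes and 3 of 6 enzymes of fuel and drug metabolism. Whether the roles differed was not tested.

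Alb differed by -10.05 ± 1.33 on the log2 scale, against day 7 controls of which 2 of 6 were well above background (adjusted p 0.0088 by limma over all genes, exact permutation p = 0.00433, the smallest that 6 against 5 mice allow). The 10 members that were not well above background in any day 7 control gave lower limits. The largest were for Gc (at least 289-fold lower), Ttr (at least 241-fold), Uox (at least 59.1-fold) and Cyp3a11 (at least 57.5-fold). The smallest were for Cps1 (at least 6.84-fold) and Tdo2 (at least 5.33-fold). Apoa2 (-0.75 ± 1.15) and Tat (-1.03 ± 0.59) differed least, with adjusted p of 0.657 and 0.212. The 5 controls of day 1 were scanned together (scan 3) and the 6 of day 7 together (scan 5), so that day and scan cannot be told apart in this comparison.

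From day 1 to day 3 the controls differed by -2.40 in the median over the 35 members. Over the 14 tested members the median of -1.66 turned to 0.30 when arrays were centred on the spike-in spots, where the median of all genes tested was 1.97. None of the 14 was called lower by limma (0% of genes were) or by the random variance test, and 0 of 35 had an unadjusted p under 0.05. None of the 35 was called over all genes (0%) or had every day 3 control below every day 1 control (0.488% of all genes did). From day 3 to day 7 the median was -4.19, none of 14 was called lower (1.48% of genes were) by either test, and 22 of 35 had an unadjusted p under 0.05 without a call over all genes (0.761% were called). Apoc1 was the single member with every day 7 control below every day 3 control (1.88% of all genes were). Alb differed by -7.22 ± 1.92 (SE) between these days, with an exact permutation p of 0.00866 (0.0375 adjusted over 13 comparisons) and an adjusted p of 0.0541 by limma.

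The spread of the members was set against the batches that the array files record. Groups took 63.4% of the sum of squares of the mean of the members over the 72 mice, days 48.2% and the 7 scan dates 27.2%, and these shares overlap because groups were scanned in blocks. Low and high mice occurred side by side within several scans. The mean of the members ran from -4.18 to 6.21 in scan 1, -0.58 to 5.42 in scan 2 and -1.58 to 8.23 in scan 3. In scan 4 all mice were high, from 4.84 to 7.12. The range was -4.53 to 7.86 in scan 5, -4.88 to 6.33 in scan 6 and -3.50 to 7.17 in scan 7. Each scan held 2 to 4 groups, so these ranges include differences between groups. The high mice of scan 5 were mainly 4 Gy x-ray mice of day 1 (6.64 to 7.86). Among the 21 sets of mice that shared both group and slide, the range was 0.03 to 10.4 with a median of 3.21. The widest was 4 mice of 4 Gy x-rays on day 7 on slide 19, from -4.08 to 6.33, and 4 day 3 controls on slide 2 differed by 9.39. The share of spots well above background, a measure of array quality, ran from 40.2% to 67.3% and had r = 0.04 with the mean of the members within groups.

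Other genes of the liver and of other tissues were followed in lists of markers. Within groups, the mean of 26 other secreted hepatocyte proteins had r = 0.985 with the members over the 72 mice, 20 detoxification and bile acid genes 0.970, 26 amino acid and sugar enzymes 0.976, 18 acute-phase genes 0.948 and 13 hepatocyte transcription factors 0.925. The gene of highest mean signal in a list, named by rule and not as a comparison between probes, could follow less closely than the list. In the order above r was 0.68 for F10 (coagulation factor X), -0.21 for Slc10a1 (the bile acid importer), 0.78 for Khk (ketohexokinase), 0.61 for Hp (haptoglobin) and 0.96 for Creb3l3 (a liver transcription factor). Markers of other liver cells varied with the members to a lesser degree, at r = 0.782 for 8 genes of sinusoidal endothelium (slope 0.19, named gene Clec4g), 0.687 for 8 of stellate cells (slope 0.15, Ecm1), 0.366 for 6 of Kupffer cells (slope 0.18, Cd5l) and 0.285 for 8 of bile duct epithelium (slope 0.05, Tspan8). Genes within these lists differed: r ran from -0.12 (Wnt2) to 0.904 (Stab2) in sinusoidal endothelium and from -0.01 (Timd4) to 0.865 (Clec4f) in Kupffer cells, genes named here after their values were seen.

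Markers of other organs had slopes on the members within groups from -0.12 (pancreas) to 0.06 (lung epithelium). The bile duct slope of 0.05 lay within that range. The correlation within groups was -0.16 for heart muscle (10 genes, named gene Myl3), -0.16 for skeletal muscle (10, Tnni2), 0.25 for lung epithelium (10, Lamp3), 0.09 for adipose tissue (8, Fabp4), 0.22 for skin (8, Krt10), -0.12 for kidney (10, Aqp2) and -0.30 for pancreas (9, Clps). The heart muscle list averaged 2.33 in 1 day 7 control, where the members were low, and between -5.17 and -2.41 in every mouse of day 1. Blood cell genes (15, named gene Hba-a1) had r = -0.56 with the members and a slope of -0.06. All these points share arrays and scans.

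**Figure D4:**
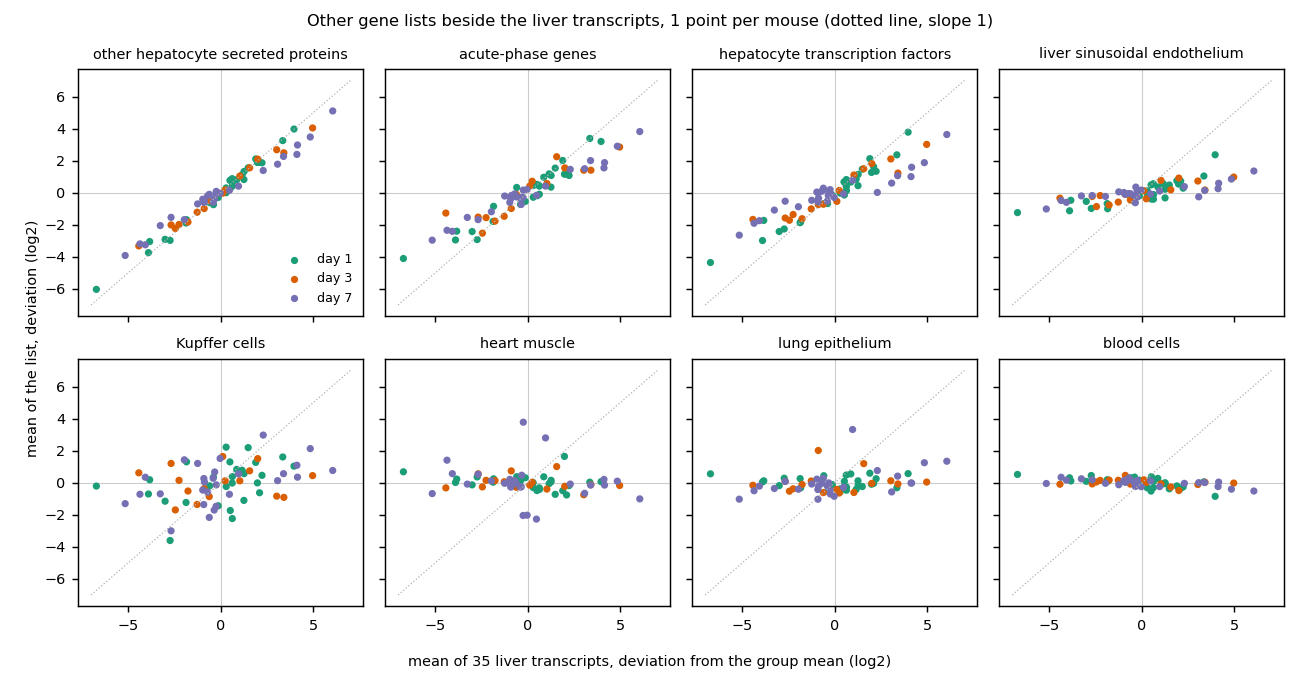
Mean level of 8 other gene lists (vertical axes) against the mean of the 35 liver transcripts (horizontal axes), both as log2 deviation from the mean of the mouse's group; each point is 1 of 72 mice, coloured by day, and the dotted line has slope 1. The other hepatocyte lists rise with the members (r = 0.985 for secreted proteins), sinusoidal endothelium rises with a slope of 0.19, and heart muscle, lung epithelium and blood cells have slopes of -0.05, 0.06 and -0.06.

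In the comparison of 4 Gy x-rays with controls on day 1, the other lists moved as follows by limma on the filtered genes (16.5% called higher). Called higher were 8 of 10 tested secreted proteins, 6 of 7 detoxification genes, 9 of 12 amino acid and sugar enzymes, 7 of 7 acute-phase genes, 5 of 5 sinusoidal endothelium genes, 5 of 5 Kupffer cell genes, 2 of 2 stellate cell genes and the 1 transcription factor tested, against 0 of 3 heart muscle, 0 of 3 skeletal muscle, 0 of 2 lung, 0 of 2 adipose and 0 of 1 skin genes. The bile duct list had 1 gene higher and 1 lower of 2, pancreas 1 of 5 higher and kidney 1 of 1 lower. Of 14 blood cell genes 5 were called lower (Cd3e, Cd79a, Cd8a, Ms4a1 and Slc4a1; 18.6% of genes were). The mean of the Kupffer cell genes was between 0.80 and 3.53 in the 4 Gy mice and between -3.29 and -0.53 in the day 1 controls, and that of the blood cell genes between 4.29 and 5.17 against 5.67 and 6.05. The part of these shifts in the members' difference was not tested. From day 1 to day 7 in the controls, none of the genes of these lists was called lower in the filtered fit, where 1.8% of genes were. The Kupffer cell and sinusoidal endothelium genes differed by 1.28 and -0.23 in the median. The means of the hepatocyte lists were lower on day 7 all the same. In the median mouse they were at 0.56 and -4.25 on days 1 and 7 for secreted proteins, and at 0.07 and -3.88 for detoxification genes. Amino acid and sugar enzymes were at 1.07 and -3.45, acute-phase genes at -0.04 and -3.43, and transcription factors at -3.29 and -5.63.

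Genes outside the set were ranked by how closely they followed the members within groups. Of 15313 genes, 197 had r of 0.8 or more and 69 of 0.9 or more, and 0 followed in the opposite direction at -0.8. The 10 closest were Itih4 (r = 0.986, an acute-phase inter-alpha-trypsin inhibitor chain), Serpinf2 (0.984, alpha-2-antiplasmin), Mup2 (0.981, a major urinary protein of a near-identical family), Azgp1 (0.980, zinc-alpha-2-glycoprotein), C8g (0.979, a complement component), Serpina1e (0.978, a relative of Serpina1a), Pzp (0.977, pregnancy zone protein), Apom (0.976, apolipoprotein M), Cyp2d26 (0.974, a cytochrome P450) and Tmprss6 (0.974, a liver protease of iron control). Of the 197, 19 were in the lists above and 178 in none. All 197 were among the 10849 genes tested outside the set, 1.82% of them. They made up 155 of the 1784 genes called higher after 4 Gy x-rays on day 1 (8.69%), 0 of the 757 after 1 Gy neutrons and 0 of the 337 after 1 Gy x-rays on that day. On day 7 they were 19 of 2724 called higher (0.698%) and 7 of 1443 called lower (0.485%) for 1 Gy neutrons, and of those called higher 1 of 356 for 1 Gy x-rays and 6 of 985 for 4 Gy (0.609%), and 10 of the 190 genes called lower in day 7 against day 1 controls (5.26%).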

How the data were processed

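Blood RNA of 72 mice, reduced in globin transcripts, was hybridised to 1-colour Cy3 Agilent arrays. The scanner intensity values were deposited by the authors as Agilent Feature Extraction 12.0.2 output, already background-subtracted, with probe positions in mm9. The authors also deposited a normalized table of log2 values, of which 60 of the 72 columns followed another array and 12 their own. It was not used for levels.

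The processed signal was taken to log2 and centred on each array's median over detected probes. Of 39429 probes, 19808 were detected (fewer than 25% of spots failed on the 56 arrays of days 1 and 7), and 12556 also differed from the probe's median by 1.5-fold in at least 20% of those arrays, leaving 10863 genes after the brightest probe was kept. Members passed these filters or not on all those arrays jointly: 14 did and 21, Alb among them, failed detection and were taken from a fit over all 31130 genes. Each comparison was fitted to its 2 groups in limma 3.58.1 (R 4.3.3) and called at p under 0.001 and a Benjamini-Hochberg FDR under 5%. Alb was also tested by an exact two-sided permutation test (scipy 1.17.1), adjusted over 13 comparisons. The random variance test, which the study's methods name, was run on the same values. Both tests were also run on simulated data in which genes were independent and both groups had equal spread. The members varied together and with unequal spread, which that run did not cover. The members and marker lists were chosen with earlier results of these data known. Genes named by rule were 10 members followed through all groups, the 10 genes closest to the members and the gene of highest mean signal in each list. Lower limits ("at least") set the brighter group's mean against the higher of the lowest signal well above background and the dim spot's own value on each array. P-values measure the spread between mice. The number of arrays limits the precision. Alternatives were no filter, other centrings, quantile normalization, normexp background correction, the random variance test, the replicate number, scan date or slide as a block and each mouse left out in turn.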

Additional observations from a re-analysis of the deposited data

Results flagged for a closer look

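In 26 of 143 groups of values of 5 or 6 mice, the highest or lowest mouse stood apart from the rest by more than Dixon's criterion allows, where chance gives about 5%. These values are not independent, since the members varied together, and all come from 4 mice.

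In 1 Gy neutrons on day 1, replicate 4 was the low mouse. Its mean of the members was -1.58 while the others were between 5.65 and 7.23. Alb was at 1.09, Ttr at -1.57, Apoa1 at -3.98, Fgb at -0.55 and Serpina1a at 2.20 in this mouse. Among its enzymes and fatty acid-binding protein, Fabp1 was at -1.40, Cps1 at -6.87, Pck1 at -4.30 and Cyp2e1 at -0.74.

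On day 7 the mice that stood apart were high. In 1 Gy neutrons replicate 1 had a mean of 2.12 against -3.24 to -2.40 in the others, with Alb at 5.43, Ttr at 3.05, Apoa1 at 0.19, Fgb at 2.92, Serpina1a at 6.58, Fabp1 at 3.64, Pck1 at -1.48 and Cyp2e1 at 4.00 (its array was the single one of that group scanned on date 5). In 0.25 Gy neutrons replicate 4 had a mean of -0.56 against -3.77 to -3.18, with Alb at 3.29, Ttr at -0.25, Apoa1 at -2.84 and Fgb at 0.62. Among the controls, replicate 5 had Fabp1 at 0.12 (others -5.42 to -3.43) and Ttr at -3.67 (others -5.89 to -5.24), although its mean of -2.66 did not stand apart.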

How the results depend on the processing

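Counts of members called were within 1.5 times the reported count in 123 of 137 single alternatives and 130 of 142 fits that left out 1 mouse. The reported count was above 0 only for 4 Gy x-rays on day 1 and for day 7 against day 1 controls. In the other comparisons these shares therefore count fits that again called 0. The Alb difference kept its direction and side of the threshold in 118 of 124 and 140 of 142. With 4 Gy x-rays on day 1 the 6 calls became 12 with spike-in centring, 10 with the scan date block and 11 with the slide block (added after the data were seen), where no scan or slide held both groups, so that these random blocks could not separate batch from exposure, and the Alb difference of 4.63 passed the permutation threshold. With 0.25 Gy neutrons on day 3, spike-in centring gave 14 calls. On day 7 the 0 calls for 0.25 Gy neutrons became 1 without filters and 2 with normexp, and those for 1 Gy neutrons 3 without filters, 1 with normexp, 1 (lower) with spike-in centring and 7 with the scan date block, where Alb differed by 10.07 and rested on 1 exposed mouse. For day 7 against day 1 controls the 5 calls became 21 without filters and 3 with normexp, and Alb, at -6.87 with normexp, was no longer called. For day 7 against day 3 controls spike-in centring gave 10 calls and Alb at -8.89, and Alb at -7.22 passed the permutation threshold. The cause of these changes was not tested. Spike-in centring moved the median of all genes by -2.46 to 1.96. The 197 genes following the members became 191 to 237 under 5 alternatives.

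Leaving out each mouse in turn, the calls ranged from 1 to 12 (4 Gy x-rays, day 1), 0 to 12 (0.25 Gy neutrons, day 3), 3 to 7 (day 7 against day 1 controls; 3 without day 1 replicate 1 or 3) and 0 to 2 (day 7 against day 3 controls; 2 without day 3 replicate 1). Alb ranged from -0.33 to 1.96 for 0.25 Gy neutrons on day 7 and from -8.82 to -5.76 for day 7 against day 3 controls, where it was called without day 3 replicate 1. Under the labels of the deposited table, an alternative added after the data were seen, the mean of the members for 0.25 and 1 Gy of neutrons on day 7 differed from the controls by -1.85 and -0.70.

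Replicate numbers were not treated as pairs, since 25 of 67 same-numbered pairs correlated above 0.1 and no comparison had all of its pairs above it. With the replicate block, the day 7 against day 1 controls had 3 calls and Alb at -9.89, not called, and the block changed no other call beyond 1.5 times. No scan date block could be formed where all arrays shared a scan (0.25 Gy neutrons on days 1 and 7) or each group had its own (4 Gy x-rays on day 7 and the comparisons of controls). Signal over background limits 21 members, and 10 of them were at background in every day 7 control.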

Other observations

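Single members left the common course in a few mice. A departure is the distance of a level from a line of that member on the mean of the other members. Apoc3, which restrains triglyceride clearance, was at 3.02 in replicate 5, 2.15 in replicate 4 and 1.33 in replicate 6 of the day 7 controls. The departures were 4.33, 3.92 and 3.59, where the other members averaged -2.83, -3.31 and -3.80. In replicate 2 of that group Apoc3 was at -4.88, not well above background, a departure of -2.59. Apoa2, the second protein of high-density lipoprotein, was at 7.64 in replicate 3 of 1 Gy neutrons on day 7, a departure of 3.05. Its level was between 2.41 and 10.69 over all 72 mice. Fabp1 was at -0.23 in replicate 2 of 0.25 Gy neutrons on day 7, a departure of 3.17.

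The heart muscle list, at 2.33 in the highest day 7 control, was between -3.72 and 2.33 in that group and at most -2.41 in all mice of day 1. The pancreas list reached 4.49 in its highest mouse, against a median of -3.47 over the 72 mice.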
